A study of Rattus norvegicus with 12 samples.

Results

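The genes described here are 10 members of the NRF2 pathway, the antioxidant response that cells mount against oxidants and electrophiles, of 18154 genes measured. They are Nfe2l2, which encodes the transcription factor NRF2, its inhibitor Keap1, and 8 genes known as NRF2 targets: Nqo1, Hmox1, Gclc, Gclm, Slc7a11, Prdx1, Srxn1 and Txn1. These members, and the pathway lists used below, were chosen with earlier results of these data known. Each member was taken by its symbol, and all 10 had a gene-level value. Their 84 exon-level probe sets were read on the 6 arrays too, so they add detail along each transcript and no replicates.

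The cells were INS1E, a rat insulin-secreting beta-cell line, in 3 stable clones with 2 samples each, lettered a and b, on 6 arrays. The control clone carried the empty vector pcDNA3, the hIAPP clone carried human islet amyloid polypeptide and the rIAPP clone the rat form. IAPP is a peptide that beta cells secrete with insulin, and the human form can aggregate into amyloid while the rat form does not. All 3 clones grew for 3 days in the same medium with 11.1 mM glucose, 200 microg/mL geneticin and 50 microM of the reducing agent beta-mercaptoethanol. Each group is 1 clone, so the transgene and other differences between clones cannot be told apart, and fewer cells in a given state cannot be told apart from less RNA per cell. The labels do not say if a and b were grown apart, so p-values measure only the spread between these samples, which may be technical.

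In the basal state KEAP1 holds NRF2 in the cytoplasm and hands it to a ubiquitin ligase for degradation. Oxidants and electrophiles modify cysteines of KEAP1, NRF2 then accumulates, pairs with small MAF proteins in the nucleus and binds antioxidant response elements near its targets. The pathway is thus controlled largely at the level of NRF2 protein, which arrays do not measure. Beta cells are known for low catalase and glutathione peroxidase activity, so the thioredoxin, peroxiredoxin and glutathione systems are of interest in them.

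Values are deposited RMA values on the log2 scale, in which a difference of 1 is a doubling of signal. RMA corrects background, normalises the arrays to each other and summarises the probes of a gene. A gene was called changed at a Benjamini-Hochberg adjusted p under 0.05 in limma, a moderated linear model fitted to all genes and all 6 arrays, and adjusted p below come from it. Arrays of a clone correlated across genes at 0.9987 to 0.9990 and arrays of different clones at 0.9934 to 0.9955 (Pearson r across genes, which are not independent replicates). All 8 beta-cell markers measured were at or above the median gene, with Ins1, Ins2, Iapp, Slc2a2, Chga and Slc30a8 at or above 98.3% of genes. None of the 11 acinar and ductal, 8 fibroblast and endothelial or 8 leukocyte markers reached the median gene, and of 8 markers of other islet cells only Gcg did, the glucagon gene, at 13.94 in the control clone. The mean level of the beta-cell markers was 12.62 to 12.68 in the control samples, 12.47 to 12.55 in hIAPP and 12.55 to 12.62 in rIAPP. Single markers moved both ways. Against control 2 of the 8 were called higher and 3 lower in hIAPP, and 2 higher and 2 lower in rIAPP, beside 19.0% and 16.0% of all genes called. The mean of Ins1 was 13.24 in the control, 12.67 in hIAPP and 12.74 in rIAPP, and that of Ins2 was 13.17, 12.44 and 12.53. The part of these marker differences in the results below was not tested.

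The promoter windows of 9 of the 10 members were found in the RefSeq table for GRCr8, and those of 5 members are shown because 2 of these genes were higher in both transfected clones and the other 3 hold the motifs searched. Each sequence is the 250 bases before the annotated start, written 5′ to 3′ on the gene's strand, and capitals mark matches to TGACNNNGC, the core of the antioxidant response element, or to TGANTCA, the related AP-1 motif, on either strand.
Nqo1, chr19:52220268-52220517, minus strand: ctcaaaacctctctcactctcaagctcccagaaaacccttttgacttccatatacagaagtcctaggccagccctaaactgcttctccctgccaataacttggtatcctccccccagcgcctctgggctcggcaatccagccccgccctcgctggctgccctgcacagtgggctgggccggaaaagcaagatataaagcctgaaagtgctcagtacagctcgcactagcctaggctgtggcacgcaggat
Nfe2l2, chr3:81029000-81029249, minus strand: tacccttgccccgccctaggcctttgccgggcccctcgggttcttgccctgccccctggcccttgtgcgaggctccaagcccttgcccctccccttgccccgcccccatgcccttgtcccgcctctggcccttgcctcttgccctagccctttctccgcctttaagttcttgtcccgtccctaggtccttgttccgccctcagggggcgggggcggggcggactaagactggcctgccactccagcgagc
Gclm, chr2:213031885-213032134, plus strand: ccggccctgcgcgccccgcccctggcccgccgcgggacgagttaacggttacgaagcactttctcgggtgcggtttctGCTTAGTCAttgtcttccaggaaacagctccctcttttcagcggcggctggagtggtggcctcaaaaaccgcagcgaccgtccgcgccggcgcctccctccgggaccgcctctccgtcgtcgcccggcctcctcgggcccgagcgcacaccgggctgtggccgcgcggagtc
Prdx1, chr5:135383656-135383905, plus strand: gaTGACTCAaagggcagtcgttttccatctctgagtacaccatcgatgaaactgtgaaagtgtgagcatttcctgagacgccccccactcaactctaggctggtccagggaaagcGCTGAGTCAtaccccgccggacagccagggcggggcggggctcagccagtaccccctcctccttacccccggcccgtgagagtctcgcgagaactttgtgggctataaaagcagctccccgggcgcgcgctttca
Srxn1, chr3:161064562-161064811, plus strand: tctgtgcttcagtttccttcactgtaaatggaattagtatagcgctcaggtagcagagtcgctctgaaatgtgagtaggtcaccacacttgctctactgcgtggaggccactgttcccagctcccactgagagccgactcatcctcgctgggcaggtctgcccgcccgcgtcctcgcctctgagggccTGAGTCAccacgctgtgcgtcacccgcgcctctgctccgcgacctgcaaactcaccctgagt

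TGACNNNGC occurred in 2 of the 9 windows, those of Gclm and Prdx1, and in 10.1% of all 33469 windows of the table. TGANTCA occurred in the windows of Prdx1 and Srxn1, and in 6.34% of all windows. In Prdx1 the TGACNNNGC match is GCTGAGTCA, 127 to 135 bases before the start, and its last 7 bases, TGAGTCA, also match TGANTCA. A second TGANTCA match in Prdx1, TGACTCA, lies 242 to 248 bases before the start and overlaps no other. The Gclm match, GCTTAGTCA, lies 164 to 172 bases before the start, and the Srxn1 match, TGAGTCA, lies 56 to 62 bases before it. The other 6 windows hold neither set of letters, which says nothing about elements farther away.

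The hIAPP clone differed from the control in 4 of the 10 members, all higher: Nfe2l2, Nqo1, Hmox1 and Slc7a11. Among all 18154 genes 19.0% were called and 10.1% were called higher. The median difference over the 10 members was −0.01, the same as over all genes, and the other 6 members lay between −0.10 and −0.01. In the rIAPP clone 3 of the 10 were called, Nfe2l2, Nqo1 and Hmox1, again all higher, where 16.0% of all genes were called and 8.70% were called higher. The median over the members was 0.14 there and that over all genes 0.00. The 2 comparisons share their control samples, so a gene that was low in both control samples is higher in both clones.

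**Figure D1:**
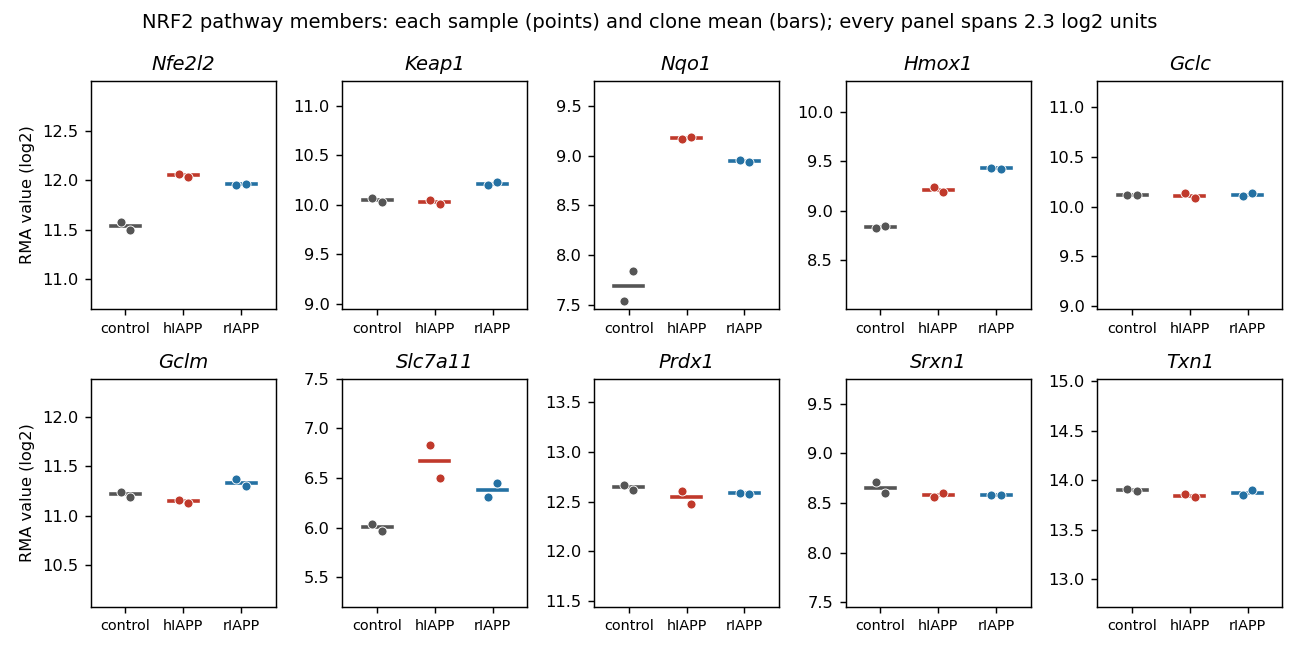
RMA values (log2, vertical axis) of the 10 members in each sample (points) and the mean of each clone (bars), with 1 panel per gene and the same span in each. Nqo1 is the only member whose clone means span more than 1, from 7.68 in the control to 9.18 in hIAPP, and Nfe2l2, Hmox1 and Slc7a11 are lower in both control samples than in the other 4.

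Nfe2l2 (transcript cluster 17773353), the NRF2 gene itself, was at or above 93.9% of genes. Its values were 11.58 and 11.50 in the control samples, 12.07 and 12.04 in hIAPP and 11.96 and 11.96 in rIAPP. The control samples lay below the other 4 with no overlap. Nfe2l2 rose by 0.51 in hIAPP (SE 0.0498, 95% interval 0.39 to 0.63, adjusted p = 0.000487), which is 1.43-fold, and by 0.42 in rIAPP (SE 0.0498, 95% interval 0.30 to 0.54, adjusted p = 0.00159), which is 1.34-fold. All 6 of its probe sets were higher in both samples of each transfected clone than in both control samples. Their differences ran from 0.41 to 0.61 in hIAPP and from 0.23 to 0.51 in rIAPP. Over all probe sets 25.4% lay above both controls in this way in hIAPP and 27.7% in rIAPP. The transfected clones differed from each other by 0.09 (hIAPP minus rIAPP, 95% interval −0.03 to 0.21, adjusted p = 0.32).

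Keap1 (17850302), the inhibitor that binds NRF2, had a level at or above 70.5% of genes. It measured 10.07 and 10.03 in the control, 10.05 and 10.01 in hIAPP and 10.20 and 10.23 in rIAPP. The rIAPP samples were the highest 2, while hIAPP and control overlapped. Against control the difference was −0.02 in hIAPP (95% interval −0.13 to 0.09, adjusted p = 0.799) and 0.16 in rIAPP (95% interval 0.05 to 0.27, adjusted p = 0.0606), and neither was called. Set against each other, the clones differed by −0.18 (hIAPP minus rIAPP, SE 0.0476, adjusted p = 0.0492), only just past the threshold. Leaving out any 1 sample ended that call, at an adjusted p of 0.0786 without either control, 0.0967 and 0.16 without hIAPP a and b, and 0.158 and 0.224 without rIAPP a and b. It held in 4 of 15 alternative settings. By exon, 6 of its 7 probe sets were lower in both hIAPP samples than in both rIAPP samples, as were 23.3% of all probe sets.

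Nqo1 (17733363), the NAD(P)H quinone reductase that is widely used as a readout of NRF2, moved most of the 10. In the control samples it measured 7.53 and 7.84, against 9.17 and 9.19 in hIAPP and 8.96 and 8.94 in rIAPP. All 4 samples of the transfected clones lay above both controls by more than 1, and the 2 control samples were farther apart (SD 0.216) than those of hIAPP (SD 0.0141) or rIAPP (SD 0.0148). Nqo1 rose by 1.49 in hIAPP (SE 0.0917, 95% interval 1.28 to 1.71, adjusted p = 5.02e-05), which is 2.82-fold. Its rise in rIAPP was 1.26 (SE 0.0917, 95% interval 1.05 to 1.48, adjusted p = 0.000154), or 2.40-fold. Both calls held in all 15 alternative settings, with adjusted p of at most 0.00287 and 0.0106.

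The Nqo1 probe sets also lay higher one by one. All 7 were higher in both samples of each transfected clone than in both controls, as were 25.4% of all probe sets in hIAPP and 27.7% in rIAPP. The differences of the 7 ran from 0.74 to 1.77 in hIAPP (median 1.52) and from 0.54 to 1.48 in rIAPP (median 1.34). The least changed was 17733370, at 7.55 and 7.45 in the control, 8.38 and 8.09 in hIAPP and 7.97 and 8.10 in rIAPP. The brightest, 17733367, went from 8.93 and 9.26 to 10.62 and 10.75 in hIAPP and to 10.39 and 10.37 in rIAPP. Between the transfected clones the gene-level difference of Nqo1 was 0.23 (hIAPP minus rIAPP, 95% interval 0.02 to 0.44, adjusted p = 0.175). It was called when only the 4 samples of these clones entered the fit (adjusted p = 0.0367). A single control sample adds nothing to the estimated spread, so leaving out control a or control b gave the same fit.

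Hmox1 (17728071), heme oxygenase 1, breaks down heme and is induced by NRF2 and also by other stress factors. Its values were 8.82 and 8.85 in the control, 9.23 and 9.19 in hIAPP and 9.43 and 9.42 in rIAPP. The 3 clones did not overlap and rIAPP was highest, unlike Nqo1, Nfe2l2 and Slc7a11, whose means were highest in hIAPP. Hmox1 rose by 0.37 in hIAPP (SE 0.0474, 95% interval 0.26 to 0.48, adjusted p = 0.00171) and by 0.59 in rIAPP (SE 0.0474, 95% interval 0.48 to 0.70, adjusted p = 0.000246). All 8 of its probe sets had positive mean differences in both clones, with medians of 0.39 and 0.58. In hIAPP all 8 were higher in both samples than in both controls and in rIAPP 7 were, beside 25.4% and 27.7% of all probe sets. When the median of its probe sets replaced the gene-level value, Hmox1 was not called (0.21, adjusted p = 0.148 in hIAPP, and 0.33, adjusted p = 0.0547 in rIAPP).

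Hmox1 also differed between the transfected clones, by −0.22 (hIAPP minus rIAPP, SE 0.0474, 95% interval −0.33 to −0.10, adjusted p = 0.0266). Hmox1 and Keap1 were the 2 of 10 members called in this comparison, both lower in hIAPP, where 11.7% of all genes were called and 5.56% were called lower. The adjusted p of Hmox1 was 0.0569 and 0.107 with hIAPP a or b left out and 0.132 and 0.131 with rIAPP a or b left out. It was 0.0674 after the running median of neighbouring genes was subtracted, and 0.479 with medians of probe sets. The direction was the same in each of these settings.

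**Figure D2:**
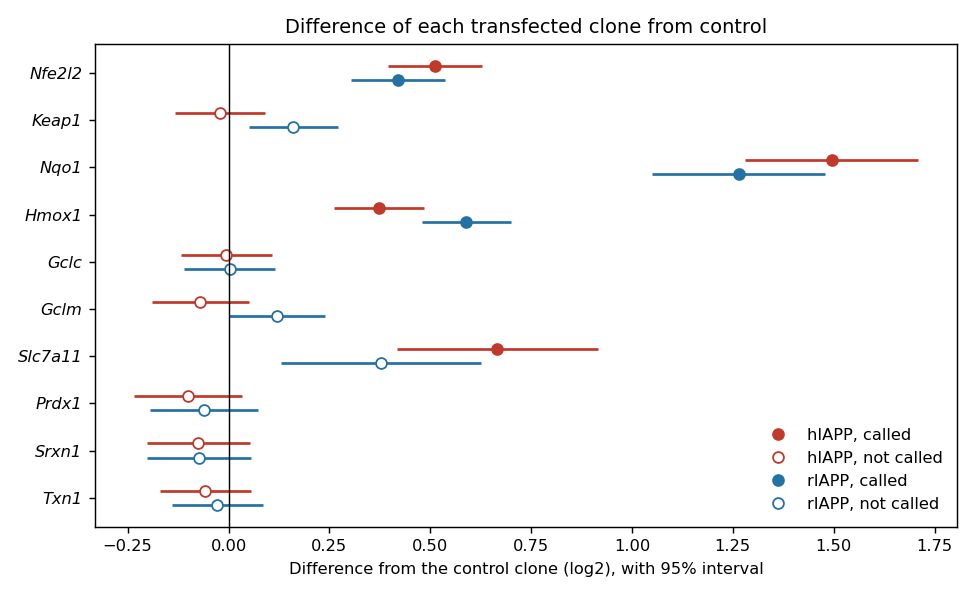
Difference of the hIAPP clone (red) and the rIAPP clone (blue) from the control clone for each member on the log2 scale, with the 95% interval of the limma fit; filled points were called at an adjusted p under 0.05. Nqo1 stands at 1.49 and 1.26, Nfe2l2 at 0.51 and 0.42, Hmox1 at 0.37 and 0.59, and the intervals of Gclc, Prdx1, Srxn1 and Txn1 include 0 in both clones.

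Of the 3 genes that supply glutathione, Slc7a11 was called higher in hIAPP only. The 2 subunits of the rate-limiting enzyme of glutathione synthesis were called in neither clone against control. Slc7a11 (17747235) encodes xCT, the transporter that brings in cystine, and responds to ATF4 as well as to NRF2. It was dim, at or above only 20.9% of genes, with 6.04 and 5.97 in the control, 6.84 and 6.50 in hIAPP and 6.31 and 6.45 in rIAPP. The control values lay below the lower quartile of every array, 6.09 to 6.13, and how far they stood above background was not assessed. Slc7a11 rose by 0.67 in hIAPP (SE 0.106, 95% interval 0.42 to 0.91, adjusted p = 0.0047). In rIAPP it differed by 0.38 (95% interval 0.13 to 0.63, adjusted p = 0.0514), with no overlap with the control but just short of the threshold.

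That rIAPP value was called with only the 2 groups compared (adjusted p = 0.0148) and with an intensity trend (0.02). Leaving out hIAPP a or hIAPP b gave the same fit as the 2 groups compared and is no separate check. The 2 hIAPP samples were farther apart than those of the other clones (SD 0.237, against 0.0486 in the control and 0.0979 in rIAPP). Of the 14 Slc7a11 probe sets 8 had a mean below the exon-level lower quartile of 6.85. In hIAPP 10 of the 14 lay above both controls, as did 25.4% of all probe sets. Differences of the 14 ranged from −0.07 to 1.77 in hIAPP and from −0.58 to 1.16 in rIAPP. The probe set 17747236 was the only one called, in hIAPP, at 6.73 and 6.37 in the control against 7.69 and 7.82. Between the clones the Slc7a11 difference was 0.29 (hIAPP minus rIAPP, adjusted p = 0.144), but without hIAPP b it was 0.46 (adjusted p = 0.0252).

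Gclc and Gclm encode the catalytic and the modifier subunit of glutamate-cysteine ligase, the rate-limiting enzyme of glutathione synthesis. Gclc (17846065) measured 10.11 and 10.12 in the control, 10.14 and 10.08 in hIAPP and 10.11 and 10.13 in rIAPP. All 6 samples lay within 0.1 of each other and the clones overlapped. The 95% interval of the difference was −0.12 to 0.11 in hIAPP and −0.11 to 0.12 in rIAPP, so a rise of the size of Hmox1 lies outside both. Gclm (17742399) measured 11.24 and 11.19 in the control, 11.16 and 11.13 in hIAPP and 11.37 and 11.30 in rIAPP. Its hIAPP samples were the lowest and its rIAPP samples the highest, without overlap. The Gclm differences were −0.07 in hIAPP (adjusted p = 0.409), 0.12 in rIAPP (adjusted p = 0.162) and −0.19 between the clones (hIAPP minus rIAPP, adjusted p = 0.0559). The last was called with an intensity trend (0.00625) and when only bright genes were fitted (0.0112).

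None of the 3 members of the peroxiredoxin and thioredoxin group was called by limma in any comparison, nor did any have an unadjusted p under 0.05. Prdx1 (17801282), a peroxidase that reduces hydrogen peroxide, measured 12.67 and 12.62 in the control, 12.60 and 12.48 in hIAPP and 12.59 and 12.57 in rIAPP. Both control samples were the highest by a narrow margin. Its differences from control were −0.10 in hIAPP (95% interval −0.23 to 0.03) and −0.06 in rIAPP (95% interval −0.19 to 0.07).

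Srxn1 (17767319), sulfiredoxin, restores overoxidised peroxiredoxins and is an NRF2 and AP-1 target. It measured 8.71 and 8.60 in the control, 8.56 and 8.60 in hIAPP and 8.58 and 8.58 in rIAPP. The spread between the control samples covered most of the difference, which was −0.07 in both clones (95% interval −0.20 to 0.05 in each). Of its 4 probe sets, 17767320 was the uneven one, at 8.49 and 8.44 in the control, 7.04 and 8.41 in hIAPP and 7.92 and 8.51 in rIAPP, so its low value came from sample a of each transfected clone. The other 3 probe sets had levels above 11.

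Txn1 (17807531), cytosolic thioredoxin, had a level at or above 99.9% of genes. It measured 13.91 and 13.89 in the control, 13.86 and 13.83 in hIAPP and 13.85 and 13.90 in rIAPP. The differences were −0.06 in hIAPP (95% interval −0.17 to 0.05) and −0.03 in rIAPP (95% interval −0.14 to 0.08). Saturation was not assessed for Txn1 or Prdx1.

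**Figure D3:**
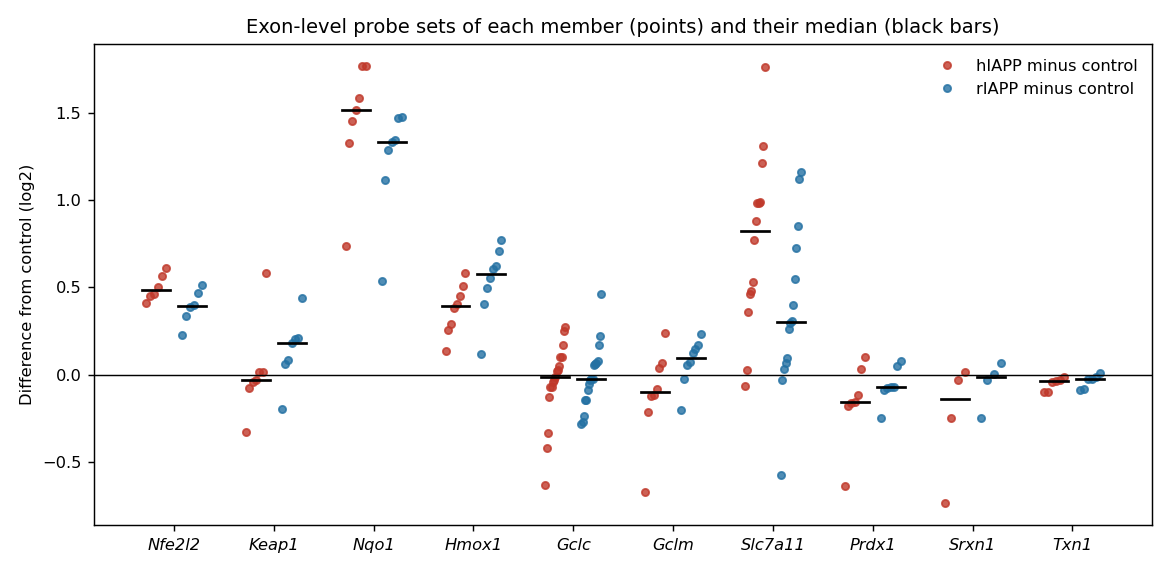
Difference from the control clone (log2) of each exon-level probe set of the 10 members, in hIAPP (red) and rIAPP (blue), with the median per gene as a black bar. All probe sets of Nfe2l2, Nqo1 and Hmox1 lie above 0 in both clones, while those of Gclc lie on both sides of it around medians of −0.02 and −0.02.

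Taken one probe set at a time over all 166557, 6 of the 84 were called in hIAPP, 5 of Nqo1 and 1 of Slc7a11, all higher, where 0.842% of all probe sets were called higher. In rIAPP 3 were called, all of Nqo1, where 0.397% of all were called higher. Between the transfected clones limma called 0 of the 84, with 6 at an unadjusted p under 0.05, and 0.278% of all probe sets were called. The share of all probe sets at that unadjusted p was not computed. No member probe set was called in either clone when any 1 of control a, control b, hIAPP a, hIAPP b, rIAPP a or rIAPP b was left out. Of all probe sets at most 174 were called in hIAPP and 5 in rIAPP in those fits.

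Whether a gene's probe sets changed unequally was tested for the 7 members that had at least 4 bright probe sets (not below the median probe set), which left out Nqo1, Slc7a11 and Srxn1. limma's diffSplice F test called 0 of the 7 in hIAPP (3 at an unadjusted p under 0.05, lowest adjusted p 0.0511, of Gclc), against 8.74% of 7979 genes tested. In rIAPP it called 0 of 7 (2 at an unadjusted p under 0.05, lowest adjusted p 0.0609, of Hmox1), against 7.81% of genes. Between the transfected clones it called 0 of 7 (1 at an unadjusted p under 0.05), against 1.02% of genes. Leaving out 1 sample brought single calls: Gclc in hIAPP without rIAPP a or rIAPP b (adjusted p = 0.0373 each), Prdx1 in hIAPP without hIAPP b (0.0193) and Hmox1 in rIAPP without hIAPP a or hIAPP b (0.0456 each). On simulated data unchanged genes made up a larger share of this test's calls than the threshold on adjusted p allows.

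The genes whose pattern over the 6 arrays lay nearest to that of Nqo1, among 9063 genes at or above the median level, were Sdf2l1, Tff3 and Kirrel3. Their root mean square distances from Nqo1, after each gene was centred on its own mean, were 0.0990, 0.108 and 0.114 on the log2 scale. Sdf2l1, a component of endoplasmic reticulum chaperone complexes, differed from control by 1.45 in hIAPP and 1.40 in rIAPP. Tff3, trefoil factor 3, differed by 1.63 and 1.27, and Kirrel3, a cell adhesion molecule, by 1.34 and 1.37. With 3 clones the pattern is little more than 2 differences, so many genes can lie near it.

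Around these members, 102 of 110 other listed genes of the pathway were measured, in 5 lists. In hIAPP 16 were called higher and 12 lower, which is 27.5% of the 102, and in rIAPP 13 higher and 14 lower, which is 26.5%, beside 19.0% and 16.0% of all genes. Their median difference was 0.01 in hIAPP and 0.02 in rIAPP, close to that of all genes. Leaving out a sample lowered the counts of all genes. It also lowered these pathway counts, except in rIAPP without either hIAPP sample. In hIAPP they were 16 without control a and without either hIAPP sample, and 13 without control b (12.7%, beside 12.3% of all genes). In rIAPP they fell without either control and without either rIAPP sample, each time to a share of the 102 above that of all genes. The hIAPP shares in the fits just listed were also above those of all genes, but only just without control b. Between the transfected clones 16 were higher in hIAPP and 5 lower, or 20.6% beside 11.7% of all genes, and 9, 12, 7 and 6 were called without hIAPP a, hIAPP b, rIAPP a and rIAPP b (the last 5.88%, beside 5.08% of all genes). These genes moved in both directions.

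**Figure D4:**
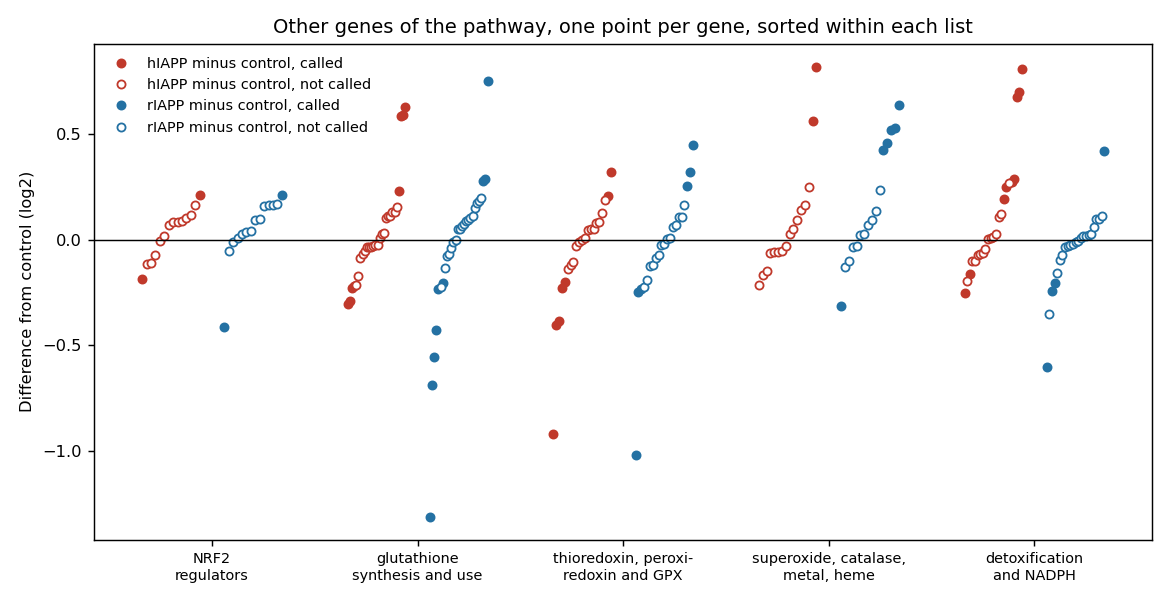
Difference from control (log2) of the other pathway genes in 5 lists, sorted within each list, for hIAPP (red) and rIAPP (blue); filled points were called. The lowest points are Gstm5 in rIAPP at −1.32 and Txnip at −0.92 in hIAPP and −1.02 in rIAPP, and the highest are Slc40a1 and Akr1b10 in hIAPP at 0.82 and 0.81.

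Among the 14 other regulators measured, 1 rose and 1 fell in each clone. That is 14.3% of the list in each, below the 19.0% of all genes called in hIAPP and 16.0% in rIAPP. Maff, a small MAF protein that can pair with NRF2, measured 9.23 and 9.19 in the control, 9.05 and 8.99 in hIAPP and 8.76 and 8.82 in rIAPP, without overlap between the clones. It fell by 0.19 in hIAPP (SE 0.0520, adjusted p = 0.0446) and by 0.42 in rIAPP (SE 0.0520, adjusted p = 0.00207). The regulator that rose was Syvn1 in hIAPP, by 0.21 (adjusted p = 0.0425), an endoplasmic reticulum ubiquitin ligase reported to act on NRF2, and Rbx1 in rIAPP, by 0.21 (adjusted p = 0.0279), a part of the ligase that KEAP1 recruits. The hIAPP call of Maff ended without any 1 of the 6 samples (adjusted p up to 0.195), and that of Syvn1 without either control, hIAPP b or either rIAPP sample (up to 0.198). The Rbx1 call ended without either control or either rIAPP sample (up to 0.156). With medians of probe sets none of these 4 calls held, and the differences were −0.02 and −0.46 for Maff, 0.19 for Syvn1 and 0.10 for Rbx1.

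In the list of glutathione synthesis and use, 4 of 28 rose and 4 fell in hIAPP, and 3 rose and 6 fell in rIAPP. These are 28.6% and 32.1% of the list, beside 19.0% and 16.0% of all genes. The transferase gene Gstm5 measured 10.06 and 9.89 in the control, 9.69 and 9.64 in hIAPP and 8.71 and 8.60 in rIAPP, lowest by far in rIAPP. It fell by 0.30 in hIAPP (adjusted p = 0.022, but 0.116, 0.0707 and 0.0963 without control a, hIAPP a and hIAPP b, and 0.0870 with medians of probe sets) and by 1.32 in rIAPP (SE 0.0698, adjusted p = 3.65e-05). Gstm1 (−0.55) and the microsomal transferase Mgst3 (−0.69) also fell in rIAPP, and Gstm genes are close paralogs whose probes may share signal. In hIAPP Gstm1 differed by −0.22 (adjusted p = 0.0587), but by −0.30 without hIAPP b (0.0281) and by −1.13 with medians of probe sets (0.00340). Mgst3 fell by 0.29 in hIAPP, a call that ended without control b (0.0809) or hIAPP b (0.0701) and with medians of probe sets (0.334). Gstt2 rose in both clones, by 0.59 and 0.76. Abcc3, an exporter of conjugates, rose in hIAPP by 0.63 (adjusted p = 0.000129), from 11.62 and 11.61 to 12.23 and 12.27, and Gsta3 rose there by 0.59 from a dim 5.82. The Gsta3 call ended without control a (adjusted p = 0.0548) or control b (0.0573), and its difference was 0.27 with medians of probe sets.

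Of 21 genes of the thioredoxin, peroxiredoxin and glutathione peroxidase systems, 2 rose and 5 fell in hIAPP, and 3 rose and 3 fell in rIAPP. These are 33.3% and 28.6% of the list, beside 19.0% and 16.0% of all genes. Txnip, which binds and inhibits thioredoxin and responds to glucose, measured 12.11 and 12.12 in the control, 11.14 and 11.25 in hIAPP and 11.10 and 11.09 in rIAPP. It fell by 0.92 in hIAPP and by 1.02 in rIAPP (SE 0.0538 in each), with all 4 samples below both controls. Prdx4, the peroxiredoxin of the endoplasmic reticulum, fell by 0.40 in hIAPP and by 0.25 in rIAPP, and the sestrin gene Sesn3 fell by 0.38 in hIAPP. The rIAPP call of Prdx4 ended without either control or either rIAPP sample (adjusted p up to 0.108), and its sign turned with medians of probe sets (0.03, adjusted p = 0.971). The methionine sulfoxide reductase genes Msrb3 and Msrb1 rose in rIAPP, by 0.45 and 0.32, and in hIAPP, by 0.32 and 0.21, and Prdx6 rose in rIAPP by 0.25. In hIAPP the Msrb3 call ended without control a (adjusted p = 0.0586) or hIAPP b (0.0530), and the Msrb1 call without either control or either hIAPP sample (up to 0.144) and with medians of probe sets (0.225). The Prdx6 call ended without either control or either rIAPP sample (adjusted p up to 0.161), and with medians of probe sets it ended (0.104), as did the hIAPP calls of Prdx4 (0.456) and Sesn3 (0.0506).

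Among 16 genes of superoxide, catalase, metal and heme handling, 2 rose and none fell in hIAPP, and 5 rose and 1 fell in rIAPP. The share called was 12.5% in hIAPP, below the 19.0% of all genes, and 37.5% in rIAPP, beside 16.0%. Slc40a1, ferroportin, the cellular iron exporter, measured 10.49 and 10.62 in the control, 11.42 and 11.34 in hIAPP and 11.09 and 11.08 in rIAPP. It rose by 0.82 in hIAPP (SE 0.0589, adjusted p = 0.000109) and by 0.53 in rIAPP (SE 0.0589, adjusted p = 0.00119). The transferrin receptor gene Tfrc, which takes iron in, rose by 0.56 in hIAPP and by 0.42 in rIAPP (adjusted p = 0.00301). The metallothionein genes Mt2A and Mt1 rose in rIAPP, by 0.64 and 0.52, and Ccs, the copper chaperone of superoxide dismutase 1, rose by 0.46. The hIAPP differences of Mt2A, Mt1 and Ccs were 0.25, 0.14 and 0.16, none of them called. Between the transfected clones Mt2A differed by −0.39, Mt1 by −0.38, Ccs by −0.29 and the biliverdin reductase gene Blvrb by −0.45 (hIAPP minus rIAPP, each called). Without rIAPP b the adjusted p of Mt1 in rIAPP was 0.0564. With medians of probe sets the rIAPP calls of Mt1 (0.111) and Ccs (0.107) ended, and so did the 4 calls between the clones (0.0874 to 0.349). The calls between the clones ended without any 1 of hIAPP a, hIAPP b, rIAPP a and rIAPP b for Mt2A (adjusted p up to 0.150), without hIAPP a or either rIAPP sample for Mt1 (up to 0.172) and Blvrb (up to 0.0661), and without hIAPP b or either rIAPP sample for Ccs (up to 0.0892). Mt1 and Mt2A are close paralogs whose probes may share signal.

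Detoxification and NADPH supply gave 7 higher and 2 lower of 23 in hIAPP, and 1 higher and 3 lower in rIAPP. The share called was 39.1% in hIAPP, beside 19.0% of all genes, and 17.4% in rIAPP, near the 16.0% of all genes. Aldh1a1, a retinaldehyde dehydrogenase, measured 9.69 and 9.61 in the control, 10.38 and 10.32 in hIAPP and 9.05 and 9.04 in rIAPP, and so moved in opposite directions. It rose by 0.70 in hIAPP (adjusted p = 0.000146) and fell by 0.61 in rIAPP (adjusted p = 0.000395). The aldo-keto reductase gene Akr1b10 rose by 0.81 and 0.42, from a dim control mean of 6.93. Aox1, aldehyde oxidase 1, rose in hIAPP by 0.68, and was higher there than in rIAPP by 0.61. Por, the reductase that feeds electrons to cytochromes P450, rose in hIAPP by 0.29. In rIAPP Ephx1, an epoxide hydrolase, and Idh1, which makes NADPH in the cytosol, fell by 0.24 and 0.20. These calls ended without either control or either rIAPP sample (adjusted p up to 0.101 and 0.176), and that of Akr1b10 in rIAPP without either control or rIAPP b (up to 0.175). With medians of probe sets they ended too (0.119 to 0.180), as did the rIAPP call of Aldh1a1 (0.0624) and that of Por, whose difference was then 0.18 (0.318).

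Some further genes known as NRF2 targets were not called against control, and the 3 given here were chosen after their values were seen. Txnrd1, thioredoxin reductase 1, measured 11.31 and 11.34 in the control, 11.41 and 11.40 in hIAPP and 11.20 and 11.21 in rIAPP. Its differences from control were 0.08 (adjusted p = 0.301) and −0.12 (adjusted p = 0.131), while the clones differed from each other by 0.20 (hIAPP minus rIAPP, adjusted p = 0.034), a call that ended without any 1 of the 6 samples (up to 0.158) and with medians of probe sets (0.453). Gsr, glutathione reductase, differed from control by 0.10 and 0.07, and Me1, malic enzyme 1, by −0.06 and 0.01. These genes were bright, at or above 88.4%, 90.1% and 95.2% of genes.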

How the data were processed

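The authors deposited log2 values from Affymetrix Expression Console and RMA, per the submitters' processing notes, with no version or genome build stated there. There are 36685 transcript clusters at gene level and 220231 probe sets at exon level. GEO's platform annotation gave 1 symbol to 18511 transcript clusters, several to 575 and none to 17599. The brightest row per symbol was kept, which left 18154 genes, and older symbols were updated from the GRCr8 gene table. At exon level 166557 probe sets had 1 symbol.

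limma 3.58.1 in R 4.3.3 fitted clone means to all 6 arrays, with 3 residual and 4.39 prior degrees of freedom. Procedures were tested on simulated data. The number of arrays limits the precision. Members and lists were chosen with earlier results of these data known. Pathway genes named are, per list and comparison, up to 4 called genes by size of difference, unless the text says otherwise. Some of them are also given in a comparison in which they were not among those 4. The listed pathway genes without a value of their own were not analysed here.

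Alternatives were an intensity trend, robust eBayes, bright genes only, median centring, medians of probe sets, means of rows, a replicate block, only the 2 groups compared, subtraction of the running median of 51 neighbouring genes, and leaving out each sample. When 2 clones are compared, leaving out either sample of the third clone gives the same fit as only the 2 groups compared. The alternatives are thus not all separate checks.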

Additional observations from a re-analysis of the deposited data

Results flagged for a closer look

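Keap1 and Hmox1 are picked out because their differences from control were not the same in the 2 transfected clones, by the test of that difference itself. For Keap1 the clones differed by −0.18 (hIAPP minus rIAPP, log2), with −0.02 in hIAPP and 0.16 in rIAPP. For Hmox1 they differed by −0.22, with 0.37 and 0.59. Leaving out any 1 sample ended the Keap1 call, and leaving out either sample of a transfected clone ended that of Hmox1.

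Of the 21 other pathway genes called by the same test, 15 are named, up to 4 per list by size. Higher in hIAPP than in rIAPP were Aldh1a1 by 1.31, Gstm5 by 1.01, Gsta3 by 0.67, Aox1 by 0.61, Abcc3 by 0.53, Mgst3 by 0.40, Cbr3 by 0.30, Cyp1a1 by 0.28, Maff by 0.23 and Txnrd1 by 0.20. The differences of the other 5 (hIAPP minus rIAPP) were −0.45 for Blvrb, −0.39 for Mt2A, −0.38 for Mt1, −0.36 for Sesn3 and −0.29 for Ccs. Gsta3 and Cyp1a1 were dim, at or above only 15.4% and 18.1% of genes. With medians of probe sets 10 of the 15 calls ended. Gsta3 then differed by 0.085 (adjusted p = 0.768) and Cbr3 by 0.013 (adjusted p = 0.956). Of these 15 calls, 4 held under every alternative tried and 10 ended when 1 sample was left out.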

How the results depend on the processing

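The Nfe2l2 and Nqo1 calls against control held in all 15 alternatives and that of Slc7a11 in hIAPP in all 14 that could give a value, since Slc7a11 is too dim for the fit of bright genes only. No call of a member changed direction, and of the pathway genes named in the text Prdx4 did in rIAPP, from −0.25 to 0.032 with medians of exon-level probe sets. With 2 samples of 1 clone per group, small differences are near the limit of what these arrays can separate, and dim genes such as Slc7a11 most of all. Of the pathway calls picked by size, up to 4 per list and comparison, 8 of 16 in hIAPP, 9 of 18 in rIAPP and 4 of 15 between the clones held in every alternative. Calls named beyond these, such as Prdx4 in rIAPP, are not in these counts.

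With medians of exon-level probe sets the genes called numbered 1337 in hIAPP, 952 in rIAPP and 531 between the clones, where 3458, 2904 and 2119 were called as reported. The other pathway genes called were then 10, 11 and 5, and the members called between the clones 0. That last count was also 0 after subtraction of the neighbouring genes' running median and 1 with robust eBayes. With an intensity trend 5 members and 43 other pathway genes were called in rIAPP, where 3990 of all genes were called. That trend also gave 15 and 10 member probe sets in hIAPP and rIAPP. Of all probe sets it called 8377 and 5240, where 2502 and 1369 were called as reported. With bright probe sets only, 10 member probe sets were called in each clone, beside 7872 of all probe sets in hIAPP and 5298 in rIAPP. With probe sets at or above the 25th percentile, 1 member (Keap1) had an uneven exon change in hIAPP. The cause of these shifts was not tested.

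Leaving out each sample in turn gave 1999 to 2871 genes called in hIAPP, 1217 to 2862 in rIAPP and 922 to 1779 between the clones, from fewer samples. The lowest counts came without control a, rIAPP b and rIAPP b. The other pathway genes called were 13 to 20, 14 to 28 and 6 to 14. Members called between the clones were 0 to 2, member probe sets 0 to 0 in hIAPP and in rIAPP, and members with uneven exon change 0 to 1 in each. A clone left with 1 sample is assumed to vary like the others.

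The values showed no shift shared by same-letter samples: their deviations correlated at −0.04, 0.00080 and 0.00016 for control with hIAPP, control with rIAPP and hIAPP with rIAPP. Whether samples of 1 letter were handled together cannot be read from these values. With the replicate block 0 member probe sets were called in hIAPP and 0 in rIAPP, where 121 and 2 of all probe sets were called. That block left 1 member called between the clones.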
